A study of Arabidopsis thaliana with 30 samples.

Results

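RRTF1 (redox responsive transcription factor 1, also called ERF109) and 9 further ethylene response factor (ERF) genes were followed across Arabidopsis seedlings with altered mitochondrial calcium uniporters. The 10 genes were taken by locus identifier: RRTF1 (AT4G34410), ERF1A (AT4G17500), ERF2 (AT5G47220), ERF5 (AT5G47230), ERF6 (AT4G17490), ERF104 (AT5G61600), ERF105 (AT5G51190), ERF1 (AT3G23240), ORA59 (AT1G06160) and ERF11 (AT1G28370). All 10 were present in each of the 9 deposited tables, out of 24721 genes listed in any table. They were picked by name with results of these data already known, RRTF1 because of its difference between antimycin A and control libraries. Values from that contrast are therefore given as a description, without a test.

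The study sequenced RNA from whole seedlings that were 10 days old, in 5 genotypes of the Col-0 accession. The lines were 2OX, 4OX and 6OX, which carry MCU2, MCU4 or MCU6 fused to YFP under the 35S promoter (2OX being a single chosen transgenic line), a sextuple line combining mutations of the 6 MCU genes that keeps residual MCU transcripts, and the wild type Col. MCU genes encode the pore-forming proteins of the mitochondrial calcium uniporter. By the labels, each genotype was placed in liquid medium for 5 h with 50 µM antimycin A (AA), an inhibitor of respiratory complex III, or with the solvent DMSO (CK). The published methods give a shorter treatment, after a night of shaking in the dark. There were 3 libraries per group and 30 in all, described in the methods as biological replicates. The labels title the control libraries of the sextuple line Sextuple1 and its AA libraries Sextuple. Whether both names stand for the same line is not stated. Whether they came from separate plates or pools of seedlings is not stated, and the p-values measure the spread between these libraries.

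The headings of the tables conflict. Of 42 pairs of equal columns found by comparing the tables read for read, 24 pairs carried opposite treatment headings: the libraries headed AA in the 5 tables that compare AA with CK within a genotype (the AA tables) were headed CK in the 4 tables that compare a line with Col (the line tables). AOX1A, the alternative oxidase gene that AA is known to raise, was lower in the libraries headed AA in every AA table, with 6872 to 10342 normalized counts in Col libraries headed AA and 14795 to 16661 in Col libraries headed CK, which goes against those headings. Libraries are named below by the heading of the table in use, and the direction of every AA value turns round if the line-table headings are the right ones. In that case the libraries headed CK in the AA tables are the AA-treated ones, and the line differences in them were measured under AA. If the AA-table headings are right, the line tables hold the AA-treated libraries instead.

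Libraries held 2.56 to 39.1 M reads (median 29.7 M), the shallowest being 2OX headed AA, replicate 1. The Col libraries headed CK in the AA tables held 11.8 to 21.5 M reads, of which 1.54 to 6.64% were ribosomal RNA, against 32.4 to 34.6 M reads with 0.0543 to 0.0692% ribosomal RNA in the Col libraries headed AA. MCU2 had 6752 to 17339 normalized counts in 2OX libraries and 368 to 549 in Col libraries, MCU4 had 3499 to 9595 in 4OX and 0.687 to 37.1 in Col, and MCU6 had 525 to 875 in 6OX and 165 to 267 in Col among libraries headed AA. In the sextuple line MCU1, MCU4 and MCU6 lay below the Col libraries under each heading, while MCU2 (441 to 617 normalized counts) overlapped them. MCU3 lay just above Col among libraries headed AA (1250.5 to 1487 in sextuple and 1006 to 1250.4 in Col) and below it among those headed CK (973 to 1108 in sextuple and 1130 to 1438 in Col), and MCU5 was not analysed here. Of 9 markers of leaf, root, phloem and guard cells, 8 had reads in all 30 libraries, as a whole seedling should give. Fewer cells of a type and less RNA per cell cannot be told apart in such samples.

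ERF proteins are plant transcription factors with 1 AP2 domain, which in several groups binds the GCC box found in promoters of defence genes. Ethylene reaches them through the receptors, the kinase CTR1, EIN2 and the transcription factors EIN3 and EIL1, and jasmonate and stress kinases act on several of them as well. Many ERF genes respond to wounding, light and reactive oxygen within minutes, and RRTF1 is known as one of the fastest and most strongly responding among them.

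All 10 genes consist of 1 exon in the longest RefSeq transcript (965 to 1389 bases, TAIR10.1 annotation). ERF6 and ERF1A are divergent neighbours on chromosome 4 with 5041 bases and no coding gene between them, and ERF2 and ERF5 are divergent on chromosome 5 with 6924 bases and 1 coding gene between them. The longest identical run between transcripts of any of the 45 pairs of members was 29 bases, between ERF2 and ERF5 and between ERF5 and ERF6, and the median was 14 bases. RRTF1 shares 301 bases with AT4G34412 and 661 bases with the lncRNA gene AT4G08985, whose reads were not analysed here, and ERF105 shares all of its 965 bases with AT5G51180, each on the opposite strand. The sources used here do not say whether counting used strand, so reads of such partners cannot be told apart. On the scale shared by all 30 libraries AT5G51180 had 520 to 797 normalized counts in libraries headed AA and 516 to 879 in those headed CK, and AT4G34412 had 142 to 268 and 203 to 492.

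The 250 bases before the RefSeq gene start of RRTF1 (chr4:16451626-16451875, plus strand), ERF1A (chr4:9758953-9759202, plus strand), ERF6 (chr4:9754162-9754411, minus strand) and ORA59 (chr1:1882657-1882906, plus strand), in TAIR10.1 coordinates, are shown because the first 3 genes had the lowest log2 fold changes between the headings in every genotype, as given below, while ORA59 libraries overlapped in 4 of 5 genotypes. Capitals mark the G box CACGTG, the sequence bound by bZIP and bHLH factors.
RRTF1: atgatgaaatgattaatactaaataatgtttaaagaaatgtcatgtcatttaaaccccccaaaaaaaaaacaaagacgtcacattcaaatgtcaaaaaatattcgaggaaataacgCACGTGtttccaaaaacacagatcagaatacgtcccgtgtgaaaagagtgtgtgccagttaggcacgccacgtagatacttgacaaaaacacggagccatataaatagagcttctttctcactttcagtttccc
ERF1A: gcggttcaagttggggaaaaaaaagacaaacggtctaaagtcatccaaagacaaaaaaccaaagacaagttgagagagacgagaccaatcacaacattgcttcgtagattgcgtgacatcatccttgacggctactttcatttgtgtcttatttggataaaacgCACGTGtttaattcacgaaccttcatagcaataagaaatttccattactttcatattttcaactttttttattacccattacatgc
ERF6: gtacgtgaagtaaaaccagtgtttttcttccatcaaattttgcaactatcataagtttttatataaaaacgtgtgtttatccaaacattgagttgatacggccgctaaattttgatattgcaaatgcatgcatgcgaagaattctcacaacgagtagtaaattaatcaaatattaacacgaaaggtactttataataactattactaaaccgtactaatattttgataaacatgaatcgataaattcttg
ORA59: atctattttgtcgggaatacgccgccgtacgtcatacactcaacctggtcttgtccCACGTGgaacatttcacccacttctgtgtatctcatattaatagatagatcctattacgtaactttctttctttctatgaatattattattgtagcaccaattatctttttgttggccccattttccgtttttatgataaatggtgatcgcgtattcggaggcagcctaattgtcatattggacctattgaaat
The G box begins 134 bases before the start of RRTF1, 86 before ERF1A and 194 before ORA59, and ERF2 holds one 39 bases before its start. It was thus in the windows of 4 of 10 genes, and in 6.49% of the 27443 windows of this length before protein-coding genes. ERF1A and ERF2 share a longer identical stretch that runs on from the G box, so these cases may not be independent. On both strands the W box core (TTGACC or TTGACT), bound by WRKY factors, was in the windows of ERF2, ERF5, ERF105 and ERF11 and in 28.4% of all windows. The GCC box AGCCGCC (0.587% of all windows), the rapid stress response element CGCGTT (2.59%) and the mitochondrial dysfunction motif (CTTG and CAAG or CACG with 5 free bases between, 1.2%) were in none of the 10. The CACG form of the last motif can share letters with the G box. ERF6, ERF104 and ERF1 held none of the 5 motifs.

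Across the 30 libraries the genes covered a wide range of levels. Per kilobase of transcript, the median of the 15 libraries headed AA in the AA tables ran from 0.569 normalized counts for RRTF1 to 1268 for ERF1A, with ERF2 at 569, ERF104 at 472 and ERF105 at 442. In the 15 libraries headed CK, ERF1A stood at 6666 per kilobase, ERF6 at 1481, ERF2 at 1165 and RRTF1 at 120. ERF1A was the most abundant and RRTF1 the least abundant of the 10 in both sets of libraries, while ERF6 ranked 6th among libraries headed AA and 2nd among those headed CK.

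RRTF1 was nearly unread in every library headed AA in the AA tables. In 2OX it had 0, 0 and 0 normalized counts in libraries headed AA and 63.7, 16.8 and 44.9 in those headed CK. In 4OX the values were 0.958, 6.14 and 0 headed AA and 213, 192 and 93.4 headed CK. The 6OX libraries gave 0.803, 1.57 and 1.89 headed AA and 321, 135 and 170 headed CK. No library headed AA in these 3 lines came near any library headed CK. Sextuple libraries held 1.06, 1.43 and 0.926 headed AA and 387, 365 and 218 headed CK, and Col libraries 0.678, 7.46 and 0 headed AA and 192, 302 and 274 headed CK.

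In reads, this was 0 against 182 over the 3 libraries of each 2OX group, 8 against 466 in 4OX, 5 against 539 in 6OX, 4 against 921 in sextuple and 13 against 525 in Col. Scaled for depth, RRTF1 was 44.0-fold lower in the 2OX group headed AA when its count of 0 was set to a floor of 3 reads over the group. The lower limit of the 95% counting interval for that group was 35.4-fold. The level headed CK over that headed AA was 62.4 in 4OX (95% counting interval 31.4 to 145), 146 in 6OX (62.4 to 453), 288 in sextuple (112 to 1058) and 93.6 in Col (54.2 to 177). These intervals cover counting error only, and all 4 overlap one another.

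Of the 13 reads of RRTF1 in the Col libraries headed AA, 12 lay in replicate 2, and of the 8 reads in 4OX headed AA, 7 lay in replicate 2. The overlapping gene AT4G34412 ranged from 176 to 218 normalized counts over the 3 Col libraries headed AA.

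**Figure D1:**
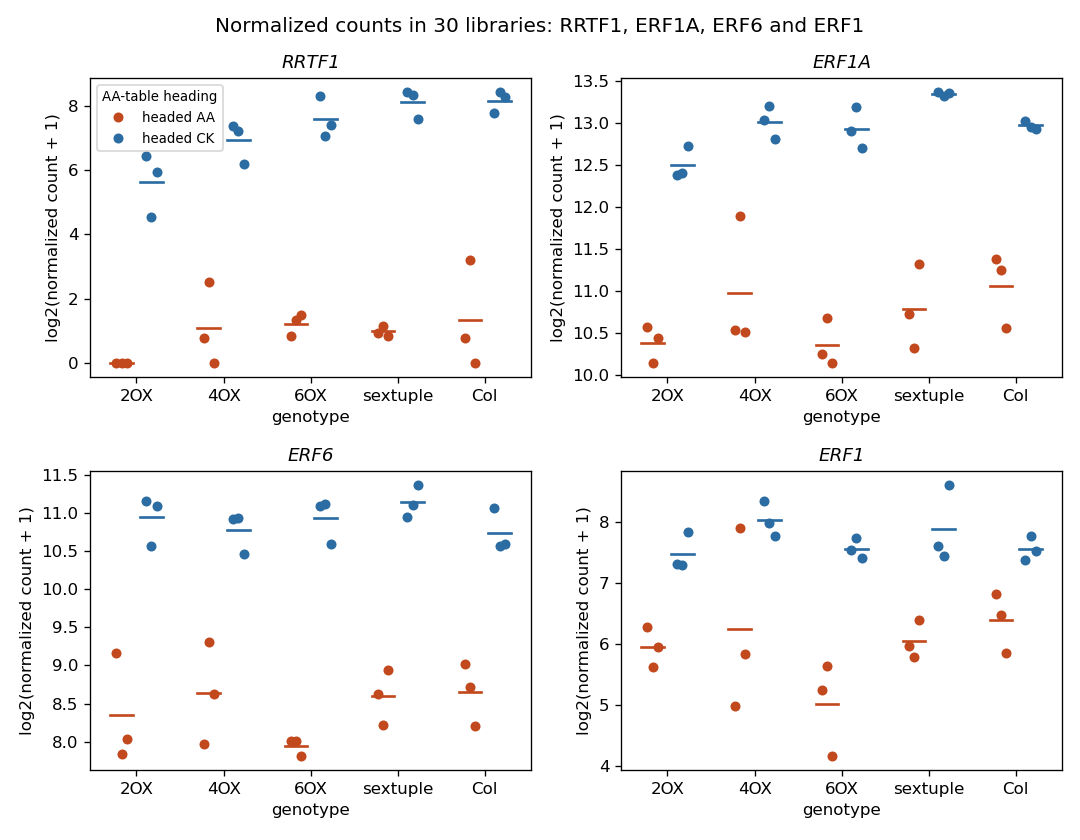
log2(normalized count + 1) of RRTF1, ERF1A, ERF6 and ERF1 on one scale over all 30 libraries, by genotype. Points are libraries, bars are means of 3 libraries, and colours give the AA-table heading. RRTF1, ERF1A and ERF6 show no overlap between the headings in any of the 5 genotypes, and 4OX headed AA has 1 library of ERF1 far above the other two.

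The group IX activators ERF1A and ERF6 kept the same order of headings in all 5 genotypes. ERF1A, an activator that binds the GCC box, had 1918, 1454 and 2901 normalized counts in sextuple libraries headed AA and 12000, 11675 and 11859 in those headed CK. In Col it had 2437, 2204 and 1367 headed AA and 7421, 7073 and 7053 headed CK. The log2 fold change of ERF1A (headed AA over headed CK) was -2.13 (SE 0.14) in 2OX, -2.05 (0.33) in 4OX, -2.58 (0.19) in 6OX, -2.56 (0.23) in sextuple and -1.88 (0.19) in Col. ERF6, a substrate of the stress kinases MPK3 and MPK6, had 446, 337 and 555 normalized counts in sextuple libraries headed AA and 2247, 2503 and 2999 in those headed CK. The 6OX line held 262, 262 and 226 headed AA and 2217, 2283 and 1579 headed CK, the widest separation of ERF6 with a log2 fold change of -3.00 (SE 0.17), against -2.07 (0.21) in Col. For both genes the groups of every genotype were apart.

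The log2 fold changes of ERF2, ERF5 and ERF104 were nearer to 0. ERF2, the closest relative of ERF1A in the list, had log2 fold changes of -0.75 (SE 0.24) in 2OX, -0.94 (0.43) in 4OX, -1.44 (0.22) in 6OX, -1.38 (0.22) in sextuple and -0.75 (0.21) in Col. ERF5, which like ERF6 is a target of MPK3 and MPK6, ranged from -1.72 (SE 0.26) in sextuple to -0.80 (0.21) in Col. ERF104, released from MPK6 when flagellin is sensed, had -0.99 (SE 0.11) in 4OX and -0.95 (0.15) in sextuple, against -0.34 (0.15) in Col, where its libraries overlapped (758, 873 and 645 headed AA and 1144, 885 and 853 headed CK).

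ERF1 and ORA59, which join ethylene and jasmonate signals on defence genes such as PDF1.2, gave unlike values. ERF1, a direct target of EIN3, had 69.6, 61.5 and 94.4 normalized counts in sextuple libraries headed AA and 221, 198 and 443 in those headed CK, and its log2 fold change was between -2.56 (SE 0.38) in 6OX and -1.15 (0.28) in Col. ORA59 had 272, 303 and 321 in sextuple libraries headed AA and 183, 227 and 349 in those headed CK, so that the groups overlapped, with a log2 fold change of 0.29 (SE 0.25). In Col, ORA59 stood at 160, 154 and 128 headed AA and at 250, 225 and 228 headed CK, which do not overlap, and the log2 fold change was -0.67 (SE 0.17). Col was the only genotype in which the 2 sets of ORA59 libraries were apart.

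ERF105, known for its part in cold tolerance, and ERF11, a repressor with an EAR motif, overlapped between the headings in most genotypes. ERF105 had 316, 237 and 478 normalized counts in sextuple libraries headed AA and 668, 796 and 1120 in those headed CK, a log2 fold change of -1.35 (SE 0.28). In Col it had 361, 506 and 246 headed AA and 407, 277 and 360 headed CK, a log2 fold change of 0.05 (SE 0.25). Its libraries overlapped in 4 of the 5 genotypes, sextuple being the exception. ERF11 had 97.1, 104 and 105 in sextuple libraries headed AA and 204, 241 and 382 in those headed CK, with a log2 fold change of -1.37 (SE 0.26), and 6OX gave -1.24 (SE 0.28). In Col the ERF11 value was -0.10 (SE 0.30), from 137, 98.3 and 61.1 headed AA and 97.4, 103 and 101 headed CK.

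A gene is called here at an adjusted p under 0.05 (limma, Benjamini-Hochberg over all genes of the table) with a fold change over 1.5. By that rule 5 of 10 members were called lower in libraries headed AA in 2OX, 5 in 4OX, 7 in 6OX, 9 in sextuple and 7 in Col, and none was called higher. Of all genes tested, 14.1% were called lower in 2OX, 12.9% in 4OX, 13.7% in 6OX, 13.4% in sextuple and 7.81% in Col. Because this contrast drew attention to the genes, nothing is read from these counts. The median log2 fold change of the 10 genes was -0.78 in 2OX, -0.97 in 4OX, -1.40 in 6OX, -1.55 in sextuple and -0.77 in Col, where the median of all genes was between -0.04 and 0.02. Without 2OX headed AA replicate 1, the shallowest library, 8 members were called in 2OX. Without 4OX headed AA replicate 2, which had 309 normalized counts of ERF1 beside 39.3 and 72.3 and 2729 of ERF2 beside 716 and 885, 8 were called in 4OX. Without Col headed AA replicate 3 the Col count was 4. In these fits, 28% of all genes were called in either direction in 2OX, 28.9% in 4OX and 13.1% in Col. With all libraries the shares were 25.1, 25.7 and 18.2%.

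**Figure D2:**
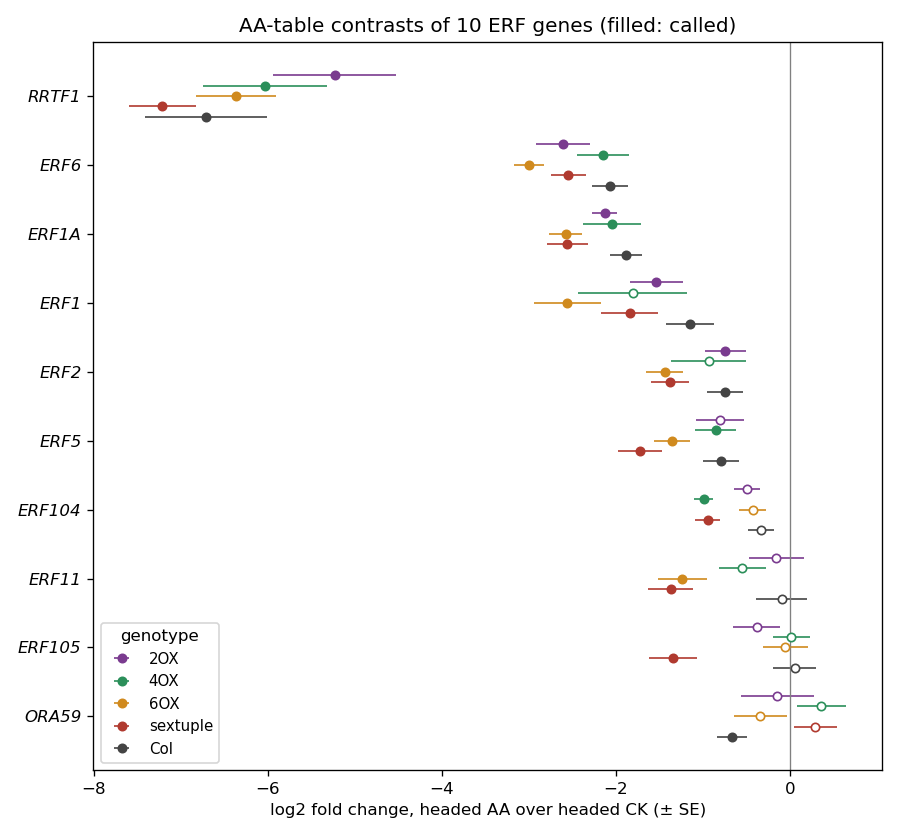
log2 fold change of the 10 ERF genes, libraries headed AA over libraries headed CK in the AA tables, with 1 point per genotype, the SE of the limma fit as bars and filled points for called values. RRTF1 lies between -7.21 and -5.23, whereas ERF105 and ORA59 lie near 0 in most genotypes.

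The AA contrast of a line was set beside that of Col as the line's log2 fold change minus that of Col, from one fit over all 30 libraries. The sextuple line minus Col gave -1.38 (SE 0.45) for ERF105, -1.25 (0.44) for ERF11, -0.90 (0.41) for ERF5 and -0.59 (0.20) for ERF104, while ORA59 gave 0.98 (0.48). In 6OX the furthest values were -1.38 (SE 0.67) for ERF1 and -1.12 (0.44) for ERF11. In 4OX they were 1.06 (SE 0.48) for ORA59 and -0.62 (0.20) for ERF104, and in 2OX 0.55 (SE 0.48) for ORA59 and -0.50 (0.43) for ERF6. RRTF1 is left out of this comparison, since with 0 to 12 reads in each library headed AA its differences move with the pseudocount. Whether these differences exceed 0 was not tested. All 4 share the Col libraries, whose depth and ribosomal share differed between headings as given above, and the part of that in the values was not tested.

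The line comparisons asked how each line differed from Col within libraries that those tables head CK. These libraries also belong to the AA contrasts above. The members were picked with results of these data already known, so their p-values here are not independent of that choice. ORA59 was the only member called, higher in the sextuple line with 322, 359 and 382 normalized counts in sextuple libraries and 234, 228 and 190 in Col libraries. The groups did not overlap, and the log2 fold change was 0.70 (SE 0.15, adjusted p by limma = 0.0379). The call rested on nearly every library, since it was lost without sextuple replicate 1 or 2 or any 1 Col replicate (adjusted p from 0.0437 to 0.174 over the 6 libraries left out, 0.00196 to 0.405 over all alternatives) while the log2 fold change stayed between 0.61 and 0.77. In 4OX, ORA59 had 245, 595 and 402 normalized counts against 238, 232 and 195 in Col, a log2 fold change of 0.81 (SE 0.30) that was not called (adjusted p by limma = 0.122).

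No member was called in 2OX, 4OX or 6OX, against 1 in sextuple, while 6.7, 5.53, 0.199 and 1.53% of all genes tested were called in either direction in 2OX, 4OX, 6OX and sextuple. At an unadjusted p under 0.05 limma gave 2 members in 2OX, 3 in 4OX, 3 in 6OX, with 2 in sextuple. The same cut gave 6194 of 22705 genes in 2OX, 6739 of 23295 in 4OX, 3575 of 23170 in 6OX and 5004 of 23164 in sextuple. edgeR called 1, 0, 0 and 1 member in these lines, and DESeq2 called 1, 1, 3 and 1. Of all genes tested, edgeR called 8.58, 5.55, 0.25 and 1.65%, and DESeq2 called 9.73, 9.32, 2.78 and 2.68%. The 3 that DESeq2 called in 6OX were ERF1 (log2 fold change -1.31), ERF6 (-0.73) and ERF1A (-0.72), all lower in 6OX. With limma, ERF1 had 48.5, 64.1 and 22.0 normalized counts in 6OX libraries and 147, 114 and 74.4 in Col libraries, which do not overlap, with a log2 fold change of -1.37 (SE 0.41, adjusted p = 0.178). ERF1A in 2OX had 1255, 967 and 1172 normalized counts against 2228, 2034 and 1271 in Col, a log2 fold change of -0.67 (SE 0.20, adjusted p by limma = 0.0667), and it was the member called in 2OX by edgeR (adjusted p = 0.0308) and DESeq2 (0.00388). A single left-out library brought 1 call in 2OX (ERF104 without 2OX replicate 1, ERF1A without Col replicate 3) and in 4OX (ORA59 without 4OX replicate 1). Of all genes tested, 8.64, 4.16 and 2.86% were called in these fits. RRTF1 could hardly be compared in these libraries, with 0 to 6.63 normalized counts in the 4 lines and 0 to 11.2 in Col, so a lower level in a line was not detectable at this depth, and no library of a line lay above the range of Col.

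The libraries headed CK in the AA tables gave the same comparison in the other arm of the design, which no line table holds, from one limma fit over the 30 libraries. By the line-table headings this arm would be the one treated with AA. All of them also belong to the AA contrasts above. RRTF1 was picked for its difference in that contrast, so its p-values in this arm are not independent of that choice. RRTF1 was lower in 2OX, with 84.8, 22.5 and 60.1 normalized counts in 2OX libraries and 216, 339 and 304 in Col libraries. The ranges were far apart, with a log2 fold change of -2.50 (SE 0.64, adjusted p by limma = 0.00782). The adjusted p was between 1.86e-09 and 0.0638 over all alternatives, and the call was lost only without 2OX replicate 2 (log2 fold change -1.96, adjusted p = 0.0638). Limma did not call RRTF1 in the other lines. It had 165, 148 and 72.2 normalized counts in 4OX (log2 fold change -1.21, SE 0.64, adjusted p by limma = 0.246). The values were 316, 132 and 166 in 6OX (-0.56, SE 0.64, adjusted p by limma = 0.736) and 341, 321 and 193 in sextuple (-0.03, SE 0.64, adjusted p = 0.988). Libraries of 6OX and sextuple overlapped those of Col. In the order of the group means (Col, sextuple, 6OX, 4OX, 2OX) each group overlapped the next.

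ERF105 and ORA59 were the further members called in 2OX. ERF105 had 694, 670 and 893 normalized counts in 2OX libraries and 459, 310 and 398 in Col libraries, a log2 fold change of 0.96 (SE 0.32, adjusted p by limma = 0.0342, 1.2e-05 to 0.129 over the alternatives). The call was lost without the trend, and when 2OX replicate 1, 2 or 3 or Col replicate 2 or 3 was left out. ORA59 had 94.7, 120 and 208 normalized counts in 2OX libraries and 282, 252 and 253 in Col libraries, a log2 fold change of -0.97 (SE 0.34, adjusted p by limma = 0.0453, 0.00761 to 0.216 over the alternatives). That call was lost without 2OX replicate 1 or 2 or any 1 Col replicate, without the mean-variance trend and with scaling by library totals. Both pairs of groups were apart.

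ERF105 was likewise at 589, 699 and 990 normalized counts in sextuple libraries (log2 fold change 0.95, SE 0.32, adjusted p by limma = 0.0627) and at 686, 629 and 646 in 4OX (0.76, SE 0.32, adjusted p = 0.129), every one above the 3 Col libraries. ERF11 was called in sextuple, with 180, 211 and 338 normalized counts in sextuple libraries and 110, 116 and 112 in Col libraries, a log2 fold change of 1.05 (SE 0.31, adjusted p by limma = 0.0372, 0.0147 to 0.182 over the alternatives). The call was lost without sextuple replicate 2 or 3 or any 1 Col replicate, and edgeR did not make it (adjusted p = 0.0746). ERF11 libraries of 4OX (176, 184 and 192) and 6OX (258, 179 and 145) also lay above those of Col, with log2 fold changes of 0.71 (SE 0.31, adjusted p by limma = 0.154) and 0.74 (SE 0.31, adjusted p = 0.21).

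In this arm limma called 3 members in 2OX, 0 in 4OX, 0 in 6OX, with 1 in sextuple, and 14.9, 6.25, 3.05 and 5.8% of all genes tested. At an unadjusted p under 0.05 there were 4, 3, 1 and 2 members, beside 7322, 5596, 3743 and 5647 of 22461 genes tested. edgeR called 3, 3, 0 and 0 members and DESeq2 3, 3, 0 and 2 in the same order of lines, the 3 in 4OX being RRTF1, ERF105 and ERF11 with both tools. Of all genes tested, edgeR called 15.7, 9.31, 2.15 and 2.18%, and DESeq2 called 16.7, 10.1, 4.04 and 5.12%. The Col libraries of this arm were the ones with fewer reads and more ribosomal RNA, and their part in these differences was not tested. The count in 2OX was 0 without 2OX replicate 2 and 1 without 2OX replicate 1, Col replicate 2 or Col replicate 3. In sextuple it was 0 without sextuple replicate 2 or 3 or any 1 Col replicate and 2 without sextuple replicate 1. Of all genes, 10.5, 9.98, 12.8 and 14.5% were called in the 2OX fits, in that order. In the sextuple fits 1.41 to 4.1% were called where the count was 0, and 12% without sextuple replicate 1.

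**Figure D3:**
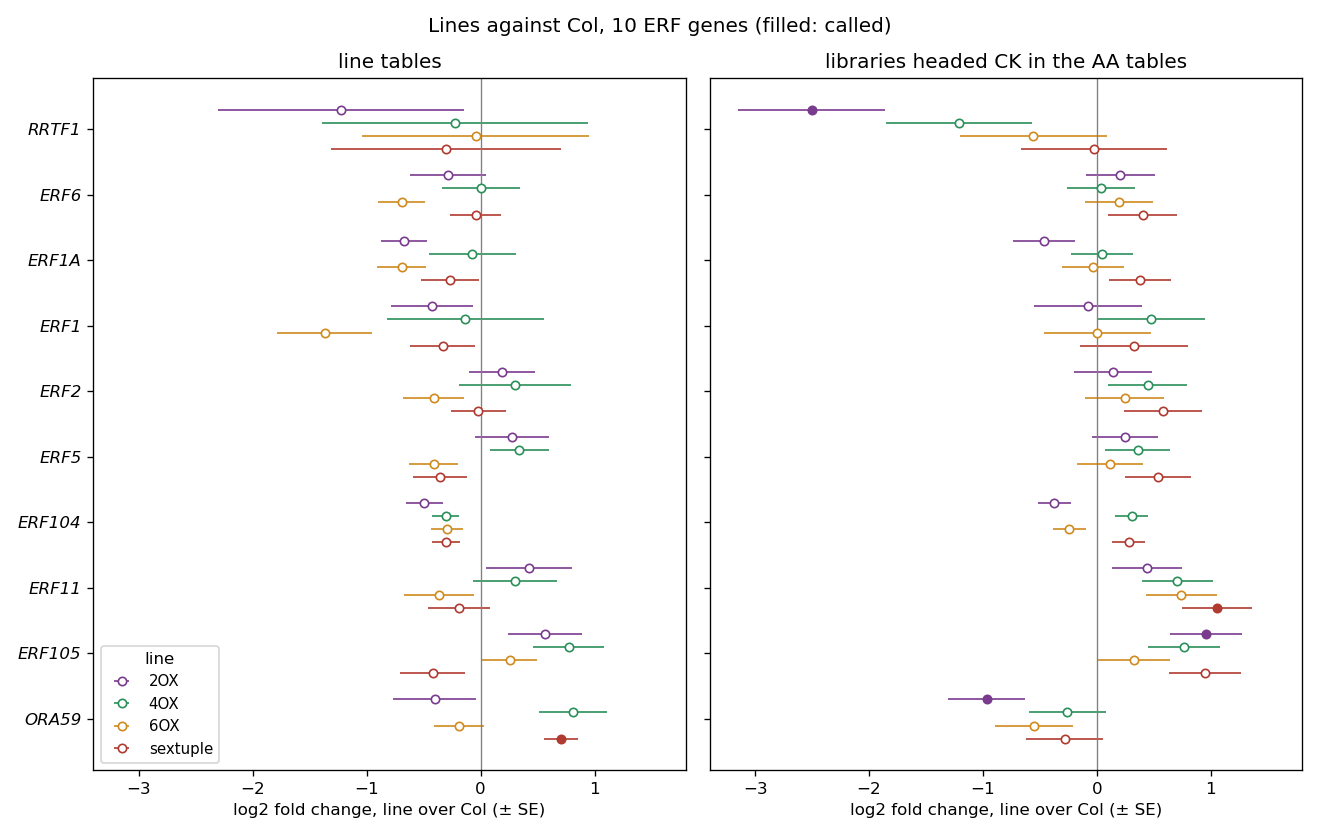
log2 fold change of the 10 ERF genes in each line over Col, in the line tables (left) and in the libraries headed CK in the AA tables (right), with the SE as bars and filled points for called values. Left, 1 point is filled (ORA59 in sextuple), and right, 4 points are filled (RRTF1, ERF105 and ORA59 in 2OX and ERF11 in sextuple).

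**Figure D4:**
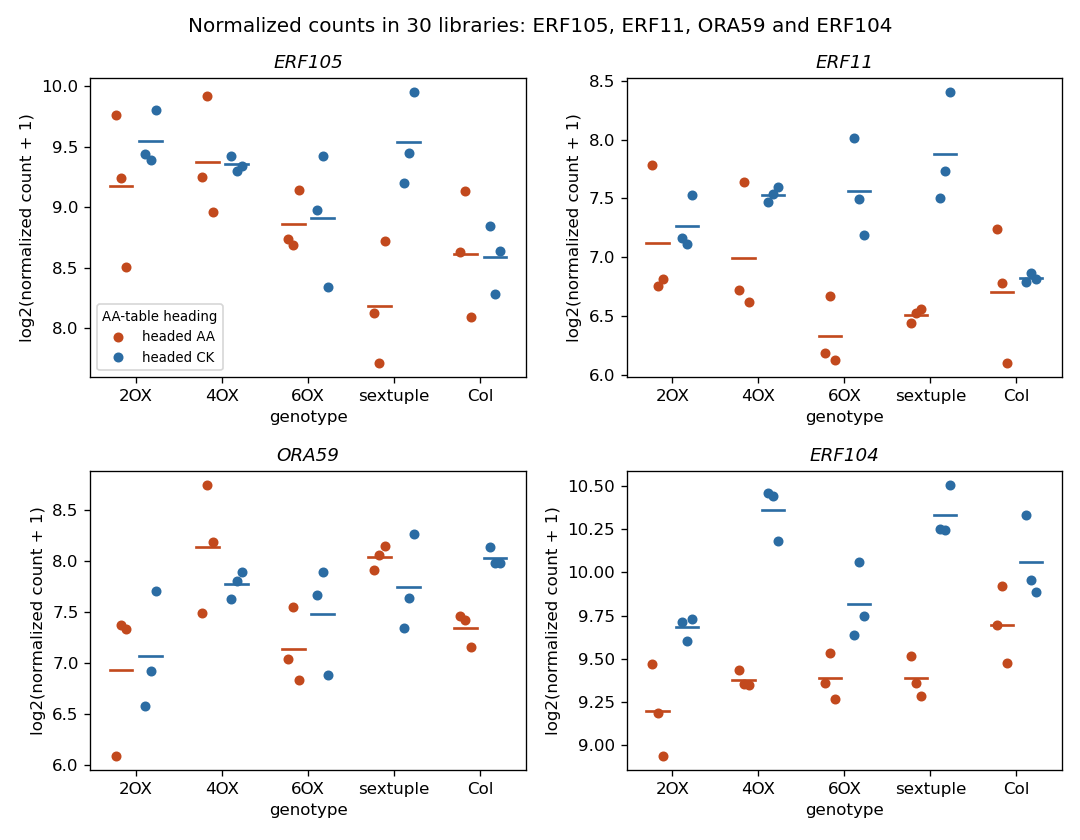
log2(normalized count + 1) of ERF105, ERF11, ORA59 and ERF104 on one scale over all 30 libraries, by genotype and AA-table heading, with points as libraries and bars as means of 3 libraries. ERF105 differs between headings without overlap in the sextuple line alone, and ORA59 in Col alone.

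On the scale shared by the 30 libraries, the means of all 5 groups headed CK lay above those of all 5 headed AA for ERF1A, ERF6, RRTF1, ERF1, ERF2 and ERF5, and for the first 3 of these no library headed AA reached any headed CK. ERF1A ran from 10438 ± 168 normalized counts (SD, n = 3) in sextuple headed CK, which was apart from the next group, through 5843 ± 797 in 2OX headed CK, the lowest of that heading, to 1329 ± 272 in 6OX headed AA. ERF6 ran from 2276 ± 341 in sextuple headed CK to 245 ± 19.4 in 6OX headed AA, and the only step between neighbouring groups without overlap was the one between the headings. For ERF105, ERF11, ERF1, ERF2, ERF5 and ORA59, every group overlapped the next in order, with ERF105 between 759 ± 207 in sextuple headed CK and 303 ± 109 in sextuple headed AA.

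The genes whose profile was most like that of RRTF1 were found by Pearson correlation of log2(normalized count + 1) over the 30 libraries, among 17773 genes with a mean of at least 50. They were AT4G18950 (r = 0.973), ABF4 (AT3G19290, r = 0.970), AT5G55970 (r = 0.969), AT3G14200 (r = 0.968) and AT1G61660 (r = 0.968). ABF4 encodes a bZIP factor of abscisic acid responses. It had 723 to 1008 normalized counts in libraries headed AA and 1335 to 2150 in those headed CK, and over the 15 libraries headed CK its r with RRTF1 was 0.879. Among the members, ERF1A was nearest to RRTF1 (r = 0.956 over 30 libraries and 0.685 over the 15 headed CK), followed by ERF6 (0.928 and 0.186). ERF105 (0.271 and -0.438) and ORA59 (0.198 and 0.422) were the least alike over the 30 libraries, while over the 15 headed CK ORA59 came next after ERF1A. The 30 libraries fall into the 2 headings and share depth and genotype, so these values describe the profiles and carry no test.

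The wider pathway was followed through lists of genes. Among the 12 genes of ethylene perception and signalling in the line tables, 5 were called lower and 0 higher in 2OX, 4 lower and 0 higher in 4OX, 0 in 6OX, with 2 lower in sextuple, where 6.7, 5.53, 0.199 and 1.53% of all genes tested were called in either direction in the same order. In the arm headed CK in the AA tables, 1 was lower in 2OX, 1 was higher in 4OX, and none was called in 6OX or sextuple. The shares of all genes called in that arm were 14.9, 6.25, 3.05 and 5.8% in the same order. In the line tables the median log2 fold change of the 12 was -0.54 in 2OX, -0.50 in 4OX, -0.29 in 6OX, with -0.35 in sextuple, beside medians of all genes between -0.04 and 0.00. EBF2, an F-box protein that marks EIN3 for degradation and is itself raised by ethylene, averaged 6999 normalized counts in sextuple and 12114 in Col (log2 fold change -0.79, SE 0.10, adjusted p by limma = 0.0152). It was also called in 4OX (-0.82, SE 0.14, adjusted p = 0.0237) and 2OX (-0.62, SE 0.13, adjusted p = 0.0187). The receptor gene ERS2 was lower in 4OX (-1.05) and 2OX (-0.89), CTR1 in 2OX (-0.83) and 4OX (-0.61), and the receptor gene ETR2 in sextuple (-0.73). EIL1 was lower in 4OX (-0.92) and 2OX (-0.72), and EIN3 in 2OX (-0.62).

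Of 13 ethylene synthesis genes, limma called 2 lower in 2OX (ACS8, log2 fold change -1.56, and ACS2, -1.08) and 1 lower in 4OX (AT1G12010, -0.74) in the line tables. Of all genes tested there, 6.7% in 2OX and 5.53% in 4OX were called in either direction. In the arm headed CK in the AA tables, by contrast, ACS7, which makes the ethylene precursor, was called higher in all 4 lines. It averaged 2573 normalized counts in 2OX, 3739 in 4OX, 2696 in 6OX, with 3189 in sextuple, against 1046 in Col, with log2 fold changes of 1.31, 1.83, 1.35 and 1.61 (SE 0.33 each, adjusted p by limma from 0.00166 to 0.0205). Since all 4 comparisons share the same 3 Col libraries, they are not independent. Those Col libraries were the ones with fewer reads and more ribosomal RNA, and their part in the ACS7 values was not tested. Of the 12 synthesis genes tested in that arm, 2OX had 3 called higher and 2 lower, 4OX 3 higher and 1 lower, 6OX 3 higher and sextuple 4 higher, beside 14.9, 6.25, 3.05 and 5.8% of all genes called in either direction in 2OX, 4OX, 6OX and sextuple.

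Of 22 further ERF genes of groups VIII, IX and X, 19 or 20 were tested. With line-table headings, 3 were called lower in 2OX, namely ABR1 (log2 fold change -1.67, SE 0.37, adjusted p by limma = 0.0253), RAP2.6 (-1.02) and AT5G61590 (-0.61), the last known as a repressor of wax synthesis. AT5G61590 (-0.71) and ERF98 (-1.32) were lower in 4OX, and none was called in 6OX or sextuple. Of all genes tested, 6.7, 5.53, 0.199 and 1.53% were called in either direction in 2OX, 4OX, 6OX and sextuple. In the arm headed CK, 3 were called lower in 2OX, 1 higher in 4OX, 1 in 6OX and 2 in sextuple. The shares of all genes called in either direction were 14.9, 6.25, 3.05 and 5.8% in the same order. AT5G61890 was higher in 4OX (1.38), 6OX (1.42) and sextuple (1.63), and RAP2.6, a relative of RRTF1 in group X, was lower in 2OX (-1.53, SE 0.23, adjusted p by limma = 8.53e-05).

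The jasmonate list of 20 genes had 1 member called higher and 3 lower in 2OX, 2 lower in 4OX and none in 6OX or sextuple in the line tables. Of all genes tested there, 6.7, 5.53, 0.199 and 1.53% were called in either direction in 2OX, 4OX, 6OX and sextuple. LOX2, a chloroplast lipoxygenase of jasmonate synthesis, was higher in 2OX (log2 fold change 1.13, SE 0.16, adjusted p by limma = 0.00453), while AOC1 (-0.88), JAZ9 (-0.85) and JAZ1 (-0.84) were lower. In the arm headed CK, 5 were lower in 2OX, among them JAZ9 (-1.58) and MYC2 (-1.29), the leading transcription factor of jasmonate responses, and 1 was higher (LOX2, 0.85), where 14.9% of all genes tested were called. The other lines had 1 lower in 4OX (MYC2, -0.65), 2 higher in 6OX (LOX2, 1.15, and LOX4, 0.90) and 1 higher in sextuple (AOS, 0.60). Of 5 kinases upstream of ERF proteins none was called in a line table, and MKK4 was higher in sextuple in the arm headed CK (0.69, SE 0.19, adjusted p by limma = 0.0246). Of 12 reported targets of ERF proteins, GA2OX6, which inactivates gibberellin and is a target of ERF6, was lower in 2OX (-1.49, SE 0.24, adjusted p by limma = 0.00783) and 4OX (-0.92, SE 0.17, adjusted p = 0.0246). ASA1, a tryptophan synthesis gene and target of RRTF1, was lower in 2OX (-0.70, adjusted p = 0.0499), and in the arm headed CK it was higher in 6OX (0.89) and sextuple (0.78). In that arm 3 of the 8 targets tested were higher in 2OX (PR3, 1.04, MYB51, 0.96, and WRKY33, 0.82), 0 in 4OX, 1 in 6OX and 3 in sextuple, and none was lower. Of all genes tested in that arm, 14.9, 6.25, 3.05 and 5.8% were called in either direction in 2OX, 4OX, 6OX and sextuple.

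In the AA tables, given as a description, the jasmonate list had 11 of 20 genes called lower in libraries headed AA in 2OX, 13 in 4OX, 16 in 6OX, 17 in sextuple and 13 in Col, and 1 called higher in 2OX and 1 in 4OX. The further ERF genes had 8, 9, 9, 9 and 6 called lower in the same order, with 2 higher in 2OX, 1 in 6OX and 1 in Col. Of the ethylene synthesis genes, 4, 5, 3, 5 and 1 were called lower and 4, 4, 4, 2 and 4 higher. The 12 genes of ethylene perception and signalling had 3, 3, 3, 3 and 0 called lower and none higher. Of the 5 kinases upstream of ERF proteins, 2, 1, 2, 2 and 1 were called lower and none higher. The reported targets had 5, 4, 5, 5 and 1 called lower out of 8, 11, 10, 9 and 9 tested, with 1 higher in 4OX and 1 in Col. Of all genes tested, 14.1, 12.9, 13.7, 13.4 and 7.81% were called lower in these genotypes, and 25.1, 25.7, 26.3, 26 and 18.2% were called in either direction. ABR1 averaged 366 normalized counts in sextuple libraries headed AA and 2912 in those headed CK, and 474 and 1497 in Col. MKK9, a kinase upstream of MPK3 and MPK6, averaged 676 and 2906 in sextuple and 558 and 1710 in Col.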

How the data were processed

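RNA of whole seedlings was sequenced in 10 groups of 3 libraries. Per the labels and the submitters' processing notes, reads were aligned with Bowtie 0.12.2 to TAIR10. The published methods name Cufflinks RPKM values, which the tables used here do not hold, and the tool that made their counts and its use of strand are not given in the sources used here. The deposited tables hold signal values that are read counts divided by size factors (normalized counts), set by the authors separately in each table. Their columns of fold changes and p-values, which hold the authors' own comparisons, were not used. Whole reads were recovered from 1266084 of 1266084 values (within 0.01 reads, 0.05 above 20000 reads).

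Values were tested as log2(value + 1) with limma 3.58.1 (mean-variance trend, mean of at least 1, Benjamini-Hochberg over all genes of a table, R 4.3.3); every log2 fold change therefore shrinks towards 0 for genes with few reads, RRTF1 above all. The arm of the design found only in the AA tables and the differences between lines were fitted on recovered reads of all 30 libraries with joint median-of-ratios size factors (22466 genes). Alternatives included edgeR 4.0.16, DESeq2 1.42.0, other pseudocounts, filters, scalings and left-out libraries, and the fits were tested on simulated data. The 10 members, the gene lists, the tests and the naming rule (all members, the 5 genes most correlated with RRTF1, and listed genes called in a line comparison, up to 4 per list) were chosen with earlier results of these data known; genes named beyond that rule, including those of the arm headed CK, were chosen after their values were seen. Promoter windows and positions came from RefSeq by locus identifier (TAIR10.1). Same-numbered replicates did not pair: in none of the 13 comparisons did all 3 correlations of deviations exceed 0.1. Counting intervals and the floor of 3 reads cover counting error only.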

Additional observations from a re-analysis of the deposited data

Results flagged for a closer look

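ORA59 moved in opposite directions in 4OX in the 2 arms. In libraries headed AA in the AA tables, every 4OX library lay above every Col library (179, 429 and 291 normalized counts against 175, 171 and 142, a log2 difference of 0.80), and in libraries headed CK every 4OX library lay below every Col library (196, 223 and 238 against 282, 252 and 253, a log2 difference of -0.26). The difference between the arms was not tested, and neither comparison was called by limma. This was the only case among 50 checks of the 10 genes over lines, arms and genotypes.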

How the results depend on the processing

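Of 2075 alternative values of single genes, none that was called changed sign and 70 that were called in neither fit did. In the line comparisons of both arms 33 lost and 22 gained a call, and 10 AA values, given without a test, moved by more than 2 SE, all of RRTF1 or ERF104. Counts of called members were 1 in 2OX in the line table with the replicate block, edgeR or DESeq2 (0 as reported), 1 in 4OX with the replicate block or DESeq2 (0), and 3 in 6OX with DESeq2 (0). The shares of all genes called in these fits were 7.98, 8.58 and 9.73% in 2OX, 8.81 and 9.32% in 4OX and 2.78% in 6OX. In sextuple the count was 0 without trend, with the replicate block, at a fold change over 2 with adjusted p under 0.01, and in the joint fit (1). There 0.0259, 0.0345, 0.0259 and 0.218% of all genes were called. For libraries headed AA against CK, the stricter threshold gave 3 in 4OX (5) and 3 in Col (7), and Col had 4 with library totals as scaling and 4 in the joint fit. These fits called 11.4% of all genes in 4OX, and 8.06, 22.8 and 18.5% in Col. In the arm headed CK, 2OX had 1 without trend and 1 at the stricter threshold (3). 4OX had 3 with a fit on 6 libraries, edgeR or DESeq2 (0), and sextuple had 0 with the fit on 6 libraries, the stricter threshold or edgeR and 2 with DESeq2 (1). All genes called in this arm were 14.3 and 4.98% in 2OX and 8.95, 9.31 and 10.1% in 4OX, in the order given. In sextuple they were 1.89, 0.744, 2.18 and 5.12%. The cause of these shifts was not tested. Leaving out 1 replicate at a time gave 0 to 1 in 2OX, 4OX and sextuple in the line tables, 4 to 8 in 2OX and 4OX and 4 to 7 in Col for AA against CK, and 0 to 2 in 2OX and sextuple in the arm headed CK. All genes called ran from 1.91 to 11.9%, 0.00858 to 5.3% and 0.0302 to 3.13% in the line tables. For AA against CK they ran from 20.3 to 28%, 20 to 28.9% and 12.8 to 18.8%, and in the arm headed CK from 9.98 to 14.5% and 1.41 to 12%. For RRTF1, the AA log2 fold change with a pseudocount of 5 was -3.07 in 2OX and -5.70 in sextuple. With the replicate block, 6 members were called in 2OX and 6 in 4OX for AA against CK (5 each), and apart from these and the line-table counts above it changed no count. It called 24.3% of all genes in 2OX and 24.7% in 4OX for AA against CK. Same-numbered libraries shared only a number.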
